A study of Homo sapiens with 6 samples.

Results

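The genes described here are 9 markers of the epithelial state of colon cells: the simple keratins KRT8, KRT18 and KRT19, the colon keratin KRT20, the carcinoembryonic antigens CEACAM5 and CEACAM6, the secreted peptide TFF3, the enzyme CA2 and the transcription factor ELF3. They were taken by gene symbol from both deposited tables. All 9 were among the 21519 genes of the co-culture table, and 8 were among the 9450 genes of the knockdown table, in which each gene comes with 1 m7G peak; CEACAM5 was not analysed in the knockdown comparison. The identifiers given in the tables are ENSG00000170421 (KRT8), ENSG00000111057 (KRT18), ENSG00000171345 (KRT19), ENSG00000171431 (KRT20), ENSG00000105388 (CEACAM5), ENSG00000086548 (CEACAM6), ENSG00000160180 (TFF3), ENSG00000104267 (CA2) and ENSG00000163435 (ELF3).

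All libraries come from DLD1, an established human colorectal cancer cell line. RNA-seq was done on wild-type DLD1 cells grown with fibroblasts called S-CAFs, in the library S-CAFs-w13, and on wild-type DLD1 cells in the library DLD1-W13CM. The title of DLD1-W13CM does not name its partner cells and does not explain the letters CM; it is the CAF co-culture only because no other library is left for it. The other 4 libraries are the input and the m7G immunoprecipitate of DLD1 cells with stable METTL1 knockdown, titled sh2, and the input and the immunoprecipitate of cells with the genotype control, titled sh-NT. METTL1 is the enzyme that writes 7-methylguanosine (m7G) inside tRNAs and other RNAs, and the immunoprecipitate holds RNA fragments pulled down with an antibody to that base. The knockdown rests on the single construct sh2. The series' design text speaks of replications, but the labels give each group 1 library, so that no difference below has a replicate check or a test across libraries, and a fold describes these libraries and not the conditions.

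Keratins build the intermediate filaments of epithelial cells from pairs of a type II and a type I protein. KRT8 (type II) pairs with KRT18 in single-layered epithelia such as the lining of the gut, KRT19 is a further type I partner, and KRT20 is a type I keratin of the mature surface cells of the intestine. CEACAM5, the carcinoembryonic antigen measured in blood as a marker of colorectal cancer, and CEACAM6 are cell adhesion glycoproteins held in the membrane by a lipid anchor. TFF3 is a trefoil peptide secreted by goblet cells, CA2 is a cytosolic carbonic anhydrase that is abundant in surface colonocytes, and ELF3 is an ETS-family transcription factor found mainly in epithelia.

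Promoter windows in the reference table, each of the 250 bases upstream of a gene start (RefSeq, GRCh38.p14), were matched for 5 of the 9 genes. Shown are CEACAM5 and CEACAM6, neighbouring genes of 1 family whose levels are set side by side below, and KRT20, the keratin of the group with the most tissue-restricted use. Capitals mark the letters of an E-box in both CEACAM windows, of a TATA box in CEACAM6 and of a CDX-type motif in KRT20.
CEACAM5, chr19:41708376-41708625, plus strand
CEACAM5: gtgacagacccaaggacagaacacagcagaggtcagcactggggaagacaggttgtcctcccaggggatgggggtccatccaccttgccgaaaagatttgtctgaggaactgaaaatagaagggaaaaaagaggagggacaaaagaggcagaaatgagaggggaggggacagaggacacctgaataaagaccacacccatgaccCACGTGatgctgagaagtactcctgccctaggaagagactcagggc
CEACAM6, chr19:41755280-41755529, plus strand
CEACAM6: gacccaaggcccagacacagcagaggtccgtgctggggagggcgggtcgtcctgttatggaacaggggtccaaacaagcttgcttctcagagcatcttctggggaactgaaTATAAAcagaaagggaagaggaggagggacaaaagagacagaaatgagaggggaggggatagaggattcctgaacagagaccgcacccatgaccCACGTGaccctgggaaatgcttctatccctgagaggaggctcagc
KRT20, chr17:40885243-40885492, minus strand
KRT20: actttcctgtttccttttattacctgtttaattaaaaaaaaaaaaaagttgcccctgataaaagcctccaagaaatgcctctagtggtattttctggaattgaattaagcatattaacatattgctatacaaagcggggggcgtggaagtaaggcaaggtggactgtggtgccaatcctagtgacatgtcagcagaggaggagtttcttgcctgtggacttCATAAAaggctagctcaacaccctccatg
The windows of CEACAM5 and CEACAM6 were identical in 190 of 258 aligned columns, 73.6%. Both held the E-box, 46 to 41 bases before the gene start in CEACAM5 and 45 to 40 bases before it in CEACAM6. CEACAM6 held a TATA box 139 to 134 bases before its start, and KRT20 held the CDX-type motif 29 to 24 bases before its start. The motifs were searched on both strands, and their matches do not overlap. The E-box letters CACGTG were present in 6.49% of all 27305 promoter windows of the same length. The TATA box was searched as TATAAA and was present in 11.1% of them. The CDX-type motif was searched as CATAAA and was present in 10.0%. Also searched were the GC box GGGCGG (42.3% of windows), the AP-1 site TGACTCA (4.16%), the ETS-type letters AGGAAG (28.7%) and the CACCC box (53.7%). Of these, CEACAM5 and CEACAM6 held CACCC shortly before the E-box, CEACAM5 also held AGGAAG, CEACAM6 also held GGGCGG, and KRT20 held CACCC. A match describes the letters of the window only.

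Effective library sizes recovered from the deposited values were 6215547 in S-CAFs-w13 and 6337932 in DLD1-W13CM, and 11625162 in knockdown input and 10454179 in control input. Levels are in FPKM, which divides fragments by gene length and by library size. The order of genes within a library therefore depends on the lengths used, such as 7191 bases for ELF3 and 6881 bases for KRT8. Whether these lengths match the messages present was not tested. The co-culture and the knockdown tables were normalized separately. The targeted gene METTL1 stood at 3.28 FPKM in knockdown input, against 5.80 FPKM in control input, 1.77-fold lower (95% counting interval 1.37 to 2.29). Intervals here and below are exact Clopper-Pearson intervals of the FPKM ratio based on whole read numbers recovered at their smallest possible size, and they cover counting error only. METTL1 was also lower in S-CAFs-w13, at 1.78 FPKM, than in DLD1-W13CM, at 4.82 FPKM. Of the markers of the labelled cell type, EPCAM stood at 149 FPKM in S-CAFs-w13 and 154 FPKM in DLD1-W13CM, and CDH1 at 103 and 133 FPKM. Among intestinal markers, CDH17 stood at 17.9 FPKM in S-CAFs-w13 and 23.2 FPKM in DLD1-W13CM, VIL1 at 1.12 FPKM in S-CAFs-w13 and 2.1 FPKM in DLD1-W13CM, and LGALS4 at 0.122 and 0.0597 FPKM, from at least 2 reads and 1 read.

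The 9 genes ranged from the most abundant messages of these cells to scarce ones. KRT18, KRT8 and KRT19 were among the most abundant protein-coding messages of every library. In S-CAFs-w13 they ranked 11, 15 and 46 of 13836 listed protein-coding genes, in DLD1-W13CM 18, 19 and 117. In knockdown input KRT8, KRT18 and KRT19 ranked 4, 6 and 20 of the 8528 protein-coding genes of that table, and in control input 6, 11 and 31. ELF3 and KRT20 formed a middle group, at 16.7 to 30.4 FPKM over the 4 libraries. CA2 and TFF3 lay below them, at 2.03 to 10.2 FPKM, and the CEACAM genes spanned 0.141 to 4.13 FPKM, below TFF3 except for CEACAM5 in S-CAFs-w13. The order of CEACAM5 (4.13 FPKM) and TFF3 (3.72 FPKM) in S-CAFs-w13 rests on at least 86 and 27 reads and has no replicate spread to be set against.

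**Figure D1:**
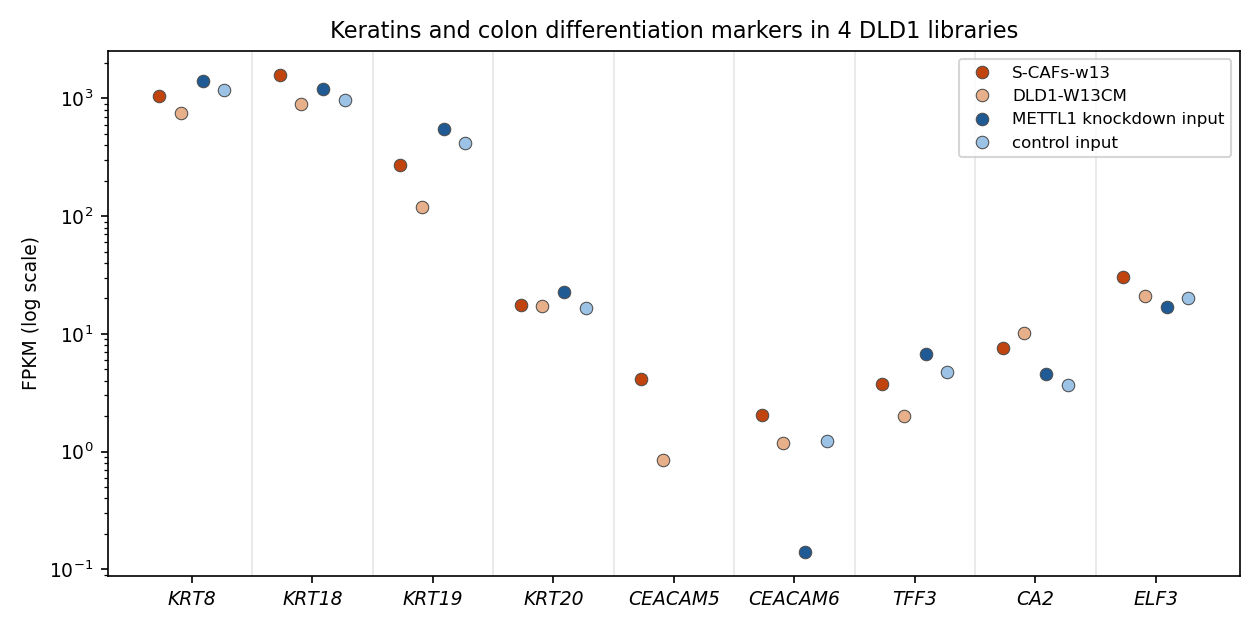
FPKM on a log scale (y axis) of the 9 genes (x axis) in S-CAFs-w13, DLD1-W13CM, METTL1 knockdown input and control input; each point is 1 library, and the co-culture and knockdown tables were normalized separately. KRT8, KRT18 and KRT19 lie between 120 and 1593 FPKM, while CEACAM6 lies between 0.141 and 2.06 FPKM.

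The first question is how growth with S-CAFs, set against growth with CAFs, goes with the epithelial genes of DLD1 cells, if DLD1-W13CM is indeed the CAF library. A difference in the form of culture between these libraries and a difference in the kind of fibroblast cannot be told apart. In S-CAFs-w13, 8 of the 9 genes had a higher level than in DLD1-W13CM and CA2 had a lower one. Of the 14739 genes whose mean reached 1 FPKM, 7710 were higher and 7029 lower. KRT19 and CEACAM5 were at least 2-fold higher, CEACAM5 as a scarce message that reached the mean of 1 FPKM only through S-CAFs-w13, and the simple keratins KRT18 and KRT8 and the transcription factor ELF3 were higher by smaller folds. On the log2(FPKM + 1) scale, which understates the folds of low genes, the 9 genes had a median of 0.52 and a range of -0.37 to 1.47, beside a median of 0.02 over the 14739 genes whose mean reached 1 FPKM. Past 2-fold were 9.08% of all genes tested on the higher side and 7.92% on the lower side; since CEACAM5 passed the filter only where it is high, the count of 2 among the 9 is given as a description. With both libraries rescaled without the genes of the mitochondrial genome, a shift of -0.22 on the log2 scale, 6.27% of all genes were 2-fold higher and 11.1% lower. Fewer cells of a type and less RNA per cell cannot be told apart in these bulk libraries.

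KRT18 stood at 1593 FPKM in S-CAFs-w13, against 892 FPKM in DLD1-W13CM, 1.79-fold higher (1.75 to 1.82, from at least 31863 and 18199 reads). Its partner KRT8 stood at 1051 FPKM in S-CAFs-w13 and 754 FPKM in DLD1-W13CM, 1.39-fold higher (1.37 to 1.41, from at least 44957 and 32886 reads). Both partners were thus higher, the type I partner by the larger fold. KRT18 had 1.52 times the FPKM of KRT8 in S-CAFs-w13 and 1.18 times in DLD1-W13CM. These levels are scaled to gene lengths of 3218 bases for KRT18 and 6881 bases for KRT8. KRT8 and KRT18 overlap by 1006 bases on opposite strands of chromosome 12 (RefSeq, GRCh38.p14: KRT8 52897191 to 52949860, KRT18 52948855 to 52952906), and whether strand was used in counting was not named in the sources used here, so reads in the shared stretch may belong to either gene.

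KRT19 stood at 273 FPKM in S-CAFs-w13, against 120 FPKM in DLD1-W13CM, 2.27-fold higher (2.14 to 2.40, from at least 3967 and 1783 reads). KRT19 was thus the keratin of the 4 with the largest fold, and its FPKM was 0.260 of that of KRT8 in S-CAFs-w13 and 0.160 of it in DLD1-W13CM. KRT20, the keratin of mature surface cells, had nearly the same level in both, at 17.5 FPKM in S-CAFs-w13 and 17.1 FPKM in DLD1-W13CM, a fold of 1.02 (0.838 to 1.25) from at least 201 and 200 reads. The direction of KRT20 depends on the scaling: its log2 ratio was 0.03 as deposited, -0.18 after the rescaling without mitochondrial genes, and -0.11 in the authors' deposited table. The same rescaling put KRT19 at a log2(FPKM + 1) ratio of 0.95, below 2-fold, with the median of all genes at -0.15. KRT8, KRT18 and KRT19 together summed to 2917 FPKM in S-CAFs-w13 and 1767 FPKM in DLD1-W13CM.

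Processed copies of the keratin genes took few reads. The 8 listed KRT8 pseudogenes summed to 8.71 FPKM in S-CAFs-w13 and 8.38 FPKM in DLD1-W13CM, with 3 higher and 5 lower in S-CAFs-w13. The 11 listed KRT18 pseudogenes summed to 10.4 FPKM in S-CAFs-w13 and 11.6 FPKM in DLD1-W13CM, with 6 higher and 5 lower. No single pseudogene passed 3.66 FPKM in either library, so these rows hold little beside 754 FPKM or more of KRT8 and 892 FPKM or more of KRT18. Reads that could be placed on both a gene and a copy may still have been lost in counting.

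CEACAM5 stood at 4.13 FPKM in S-CAFs-w13, against 0.848 FPKM in DLD1-W13CM, 4.87-fold higher (2.91 to 8.61). It had the largest fold of the 9 genes and rests on few reads, at least 86 in S-CAFs-w13 and 18 in DLD1-W13CM. Its neighbour CEACAM6 stood at 2.06 FPKM in S-CAFs-w13 and 1.19 FPKM in DLD1-W13CM, 1.73-fold higher (1.01 to 3.03, from at least 39 and 23 reads). The intervals of the 2 CEACAM folds overlap, and the difference between the folds was not tested. CEACAM genes are similar in sequence, and reads can be split between them in counting.

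TFF3 stood at 3.72 FPKM in S-CAFs-w13 and 2.03 FPKM in DLD1-W13CM. Its fold of 1.84 had an interval of 0.942 to 3.71 from at least 27 and 15 reads, so that no difference was detectable at this depth. CA2 stood at 7.65 FPKM in S-CAFs-w13, against 10.2 FPKM in DLD1-W13CM, 1.33-fold lower (1.02 to 1.74), with at least 101 reads in S-CAFs-w13 and 137 in DLD1-W13CM. CA2 was the only one of the 9 genes with a lower level in S-CAFs-w13 on the scale as deposited. ELF3 stood at 30.4 FPKM in S-CAFs-w13, against 20.9 FPKM in DLD1-W13CM, 1.46-fold higher (1.34 to 1.58, from at least 1358 and 951 reads). ELF3-AS1, a noncoding gene on the opposite strand just upstream of ELF3, went the other way, at 1.67 FPKM in S-CAFs-w13 and 4.91 FPKM in DLD1-W13CM, 2.94-fold lower (1.45 to 6.45).

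The counting interval lay above no difference for 6 of the 9 genes, beside 28.7% of all 14521 genes with an interval, and below it for CA2 alone, beside 25.9%. CEACAM6 is among the 6 by a lower bound of 1.007; on the authors' scaling that bound is 0.912 and after the rescaling without mitochondrial genes 0.862, so that 5 genes are left under either. It included no difference for KRT20 and TFF3. Intervals narrow with reads, so the share of genes outside no difference is higher among deeply read genes such as the keratins, and it says nothing of variation between cultures. For KRT19 and CEACAM5 the whole interval lay above 2-fold on the scale as deposited. The lower bound of KRT19 was 1.94 on the authors' scaling and 1.84 after the rescaling, below 2-fold under either. That of CEACAM5 was 2.63 and 2.49.

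**Figure D2:**
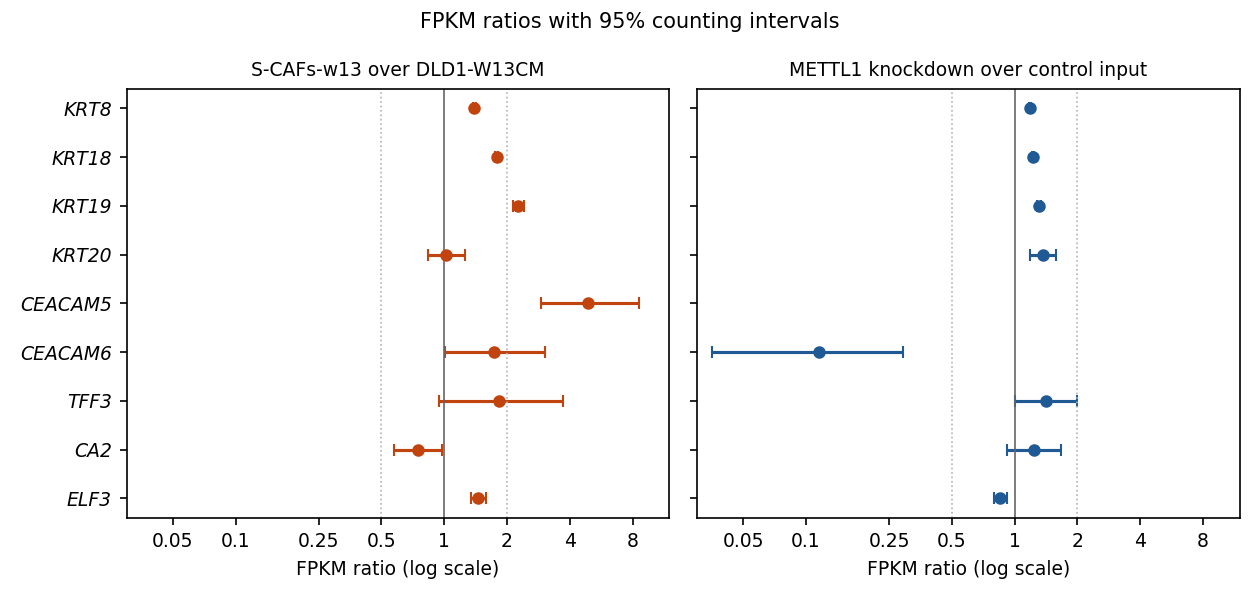
FPKM ratios on a log scale (x axis) with exact 95% counting intervals (bars) of each gene (y axis), S-CAFs-w13 over DLD1-W13CM in the left panel and METTL1 knockdown over control input in the right panel; the solid line is no difference and the dotted lines are 2-fold. On the scale as deposited, KRT19 and CEACAM5 lie wholly above 2-fold on the left. CEACAM6 lies wholly below 2-fold on the right, from at least 5 and 39 reads.

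Of the keratins of other epithelia, KRT13, KRT15, KRT16, KRT81 and KRT86 were scarce and higher in S-CAFs-w13. The intervals of KRT5, KRT6A, KRT10 and KRT17 included no difference. KRT5 had the lower level in S-CAFs-w13, at 0.0375 FPKM against 0.110 FPKM in DLD1-W13CM. Of a list of 19 keratins of simple epithelia, stratified epithelia and hair, 15 were listed and 11 reached a mean of 1 FPKM. Of these 11, 5 were 2-fold higher or more and 0 were 2-fold lower, beside 9.08% and 7.92% of all genes. Their median log2 ratio was 0.84. Of the 5, KRT19 alone is a simple keratin, and KRT13, KRT15, KRT81 and KRT86 reached the mean of 1 FPKM only through S-CAFs-w13, where they are high, so the count and the median are partly set by the filter. At a minimum mean of 5 FPKM, 1 of 5 keratins was 2-fold higher and the median was 0.48; with no filter, 14 of 15 were above 0 and the median was 0.49. KRT81 and KRT86, hair keratins, stood at 4.92 and 4.17 FPKM in S-CAFs-w13, against 0.245 and 0.132 FPKM in DLD1-W13CM, 20.1-fold (6.54 to 100) and 31.6-fold (8.39 to 267) higher. KRT81 and KRT86 are near-identical in sequence, so the split of reads between them is uncertain. KRT15, a keratin of the basal layer of stratified epithelia, stood at 2.75 FPKM in S-CAFs-w13 and 0.201 FPKM in DLD1-W13CM, 13.7-fold higher (6.99 to 30.7). KRT13, a keratin of the upper layers of such epithelia, stood at 2.6 FPKM in S-CAFs-w13 and 0.217 FPKM in DLD1-W13CM, 12-fold higher (4.38 to 45.8). These 4 keratins were scarce messages, each under 5 FPKM, where KRT8 and KRT18 were at 754 FPKM or more. KRT80 stood at 31.0 FPKM in S-CAFs-w13 and 25.3 FPKM in DLD1-W13CM, and KRT7 at 1.26 and 0.964 FPKM. As deposited, all 11 measured keratins were above 0, beside 7710 of all 14739 genes. Rescaled without mitochondrial genes, KRT10 and KRT20 were below 0 and the median was 0.61.

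Within the CEACAM family, 4 of 12 genes were listed and measured. Of these, 2 were past 2-fold higher and 0 past 2-fold lower, beside 9.08% and 7.92% of all genes, and the median was 0.98. CEACAM5 reached the mean of 1 FPKM only through S-CAFs-w13 and CEACAM19 only through DLD1-W13CM, so the count is partly set by the filter. At a minimum mean of 5 FPKM, CEACAM1 alone was left. Beside CEACAM5, the gene past 2-fold was CEACAM1, a transmembrane member of the family. It stood at 14.6 FPKM in S-CAFs-w13 and 3.08 FPKM in DLD1-W13CM, 4.73-fold higher (3.84 to 5.88). CEACAM1 was the most abundant CEACAM message in both libraries. CEACAM19 stood at 0.680 FPKM in S-CAFs-w13 and 1.33 FPKM in DLD1-W13CM.

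Genes of mature colonocytes stood on both sides of no difference. Of 33 such genes, CA2 and KRT20 among them, 21 were listed and 11 measured, with a median of -0.26. Beside 7710 and 7029 of all 14739 genes, 4 of the 11 were above 0 and 7 below 0. This split depends on the settings: rescaled without mitochondrial genes, 2 were above 0 and 9 below; with no filter, 11 were above and 10 below, with a median of 0.001; and at a minimum mean of 5 FPKM, 3 were above and 2 below, with a median of 0.03. On the log2(FPKM + 1) scale 2 of the 11 were past 2-fold higher and 1 past 2-fold lower, beside 9.08% and 7.92% of all genes. CDHR5, a cadherin of the brush border, stood at 3.16 FPKM in S-CAFs-w13 and 0.407 FPKM in DLD1-W13CM, 7.75-fold higher (3.99 to 16.8). CDHR5 reached the mean of 1 FPKM only through S-CAFs-w13, and SLC9A2, given below, only through DLD1-W13CM. TSPAN1, a tetraspanin, stood at 62.7 FPKM in S-CAFs-w13 and 22.3 FPKM in DLD1-W13CM, 2.81-fold higher (2.47 to 3.19). SLC9A2, a sodium/proton exchanger, was the 1 measured colonocyte gene at least 2-fold lower on the log2(FPKM + 1) scale, at 0.726 FPKM in S-CAFs-w13 and 2.64 FPKM in DLD1-W13CM, 3.63-fold lower (2.35 to 5.78). In plain FPKM the sulfate transporter gene SLC26A2 was past 2-fold as well, at 1.57 FPKM in S-CAFs-w13 and 3.65 FPKM in DLD1-W13CM, 2.32-fold lower (1.79 to 3.04).

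Of 22 goblet and secretory genes, 15 were listed and 6 measured, with a median of 0.59. On the log2(FPKM + 1) scale 1 was past 2-fold higher and 0 were past 2-fold lower, beside 9.08% and 7.92% of all genes. The higher one was KLK1, tissue kallikrein, at 11.7 FPKM in S-CAFs-w13 and 4.58 FPKM in DLD1-W13CM, 2.56-fold higher (1.92 to 3.43); rescaled without mitochondrial genes, it was below 2-fold on the log2(FPKM + 1) scale. The secretory genes AGR2 (31.8 FPKM in S-CAFs-w13 and 20.9 FPKM in DLD1-W13CM) and MUC5AC (13.5 and 8.66 FPKM) had levels in the direction of TFF3, and the membrane mucin MUC1 (2.63 and 5.42 FPKM) had the opposite one, 2.06-fold lower in plain FPKM (1.56 to 2.74).

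The list of epithelial transcription factors, which holds ELF3 and also the splicing regulators ESRP1 and ESRP2, went both ways. Of 25, 22 were listed and 19 measured, with a median of 0.36. Of these, 1 was past 2-fold higher and 3 were past 2-fold lower, beside 9.08% and 7.92% of all genes. Of the 3, OVOL2 reached the mean of 1 FPKM only through DLD1-W13CM. The repressor BCL6 stood at 19.5 FPKM in S-CAFs-w13 and 7.71 FPKM in DLD1-W13CM, 2.52-fold higher (2.20 to 2.90). CDX2, the homeobox factor of intestinal identity, stood at 6.83 FPKM in S-CAFs-w13 and 19.0 FPKM in DLD1-W13CM, 2.78-fold lower (2.33 to 3.32). GRHL2 and OVOL2, factors that maintain epithelial gene expression, were 2.56-fold (2.18 to 3.01) and 3.43-fold (1.66 to 7.77) lower. EHF, an ETS factor related to ELF3, stood at 121 FPKM in S-CAFs-w13 and 83.1 FPKM in DLD1-W13CM, and KLF5, a factor of crypt cells, at 126 and 81.5 FPKM.

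Markers of other cell types were low. Of 19 fibroblast markers, 11 were listed, 0 of these at 0, and their summed level was 13.9 FPKM in S-CAFs-w13 and 11.3 FPKM in DLD1-W13CM, of which S100A4 made 7.53 and 4.77 FPKM. Of these 11 markers, 8 were above 0 and 3 below 0. PDGFRB, a receptor of fibroblasts and mural cells, stood at 0.564 FPKM in S-CAFs-w13 and 0.0221 FPKM in DLD1-W13CM, 25.5-fold higher (4.17 to 1047) from at least 25 reads and 1 read. COL6A1 was 11.2-fold higher (1.63 to 483), at 0.331 FPKM in S-CAFs-w13 and 0.0295 FPKM in DLD1-W13CM, and COL1A1 at 0.229 and 0.0482 FPKM. FN1 went the other way, at 1.71 FPKM in S-CAFs-w13 and 3.12 FPKM in DLD1-W13CM, 1.82-fold lower (1.52 to 2.19). Of 10 leukocyte markers, 3 were listed, summing to 2.61 FPKM in each library. The part of other cells in the levels above was not tested.

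**Figure D3:**
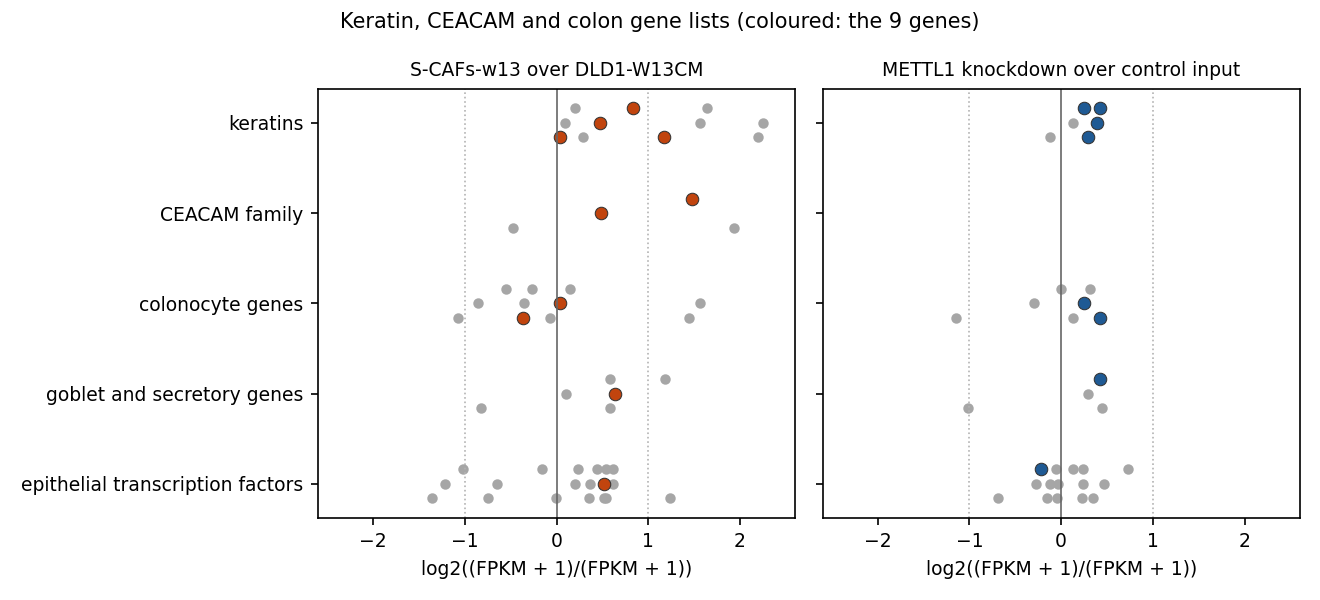
The log2((FPKM + 1)/(FPKM + 1)) ratio (x axis) of every measured gene of 5 gene lists (y axis), S-CAFs-w13 over DLD1-W13CM in the left panel and METTL1 knockdown over control input in the right panel; each point is a gene, coloured where it is 1 of the 9, and dotted lines are 2-fold. In the left panel the 11 keratins that reached a mean of 1 FPKM lie above 0, and 7 of 11 colonocyte genes lie below 0. Of these keratins, KRT7, KRT13, KRT15, KRT81 and KRT86 reached that mean only through S-CAFs-w13. In the right panel no keratin passes 2-fold.

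The knockdown comparison asks what reduced METTL1 does to RNA levels and rests on the single construct sh2. All 4 keratins stood slightly higher in knockdown input than in control input, by 1.19-fold to 1.36-fold, and ELF3 stood slightly lower. Of the 8400 genes whose mean reached 1 FPKM, 4297 were higher and 4103 lower. None of the 7 genes whose mean reached 1 FPKM was 2-fold higher, beside 0.429% of all 8400 genes, and none was 2-fold lower, beside 0.56%. Their median log2(FPKM + 1) ratio was 0.29, with a range of -0.22 to 0.42, beside a median of 0.006 over all genes. CEACAM6, whose mean lay below 1 FPKM, was the exception in size.

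KRT8 stood at 1399 FPKM in knockdown input, against 1178 FPKM in control input, 1.19-fold higher (1.18 to 1.20, from at least 111876 and 84762 reads). KRT18 stood at 1193 FPKM in knockdown input and 974 FPKM in control input, 1.22-fold higher (1.21 to 1.24). The partners stood in nearly the same proportion, with KRT18 at 0.853 of the FPKM of KRT8 in knockdown input and 0.827 in control input. KRT19 stood at 548 FPKM in knockdown input and 418 FPKM in control input, 1.31-fold higher (1.28 to 1.34). KRT20 stood at 22.7 FPKM in knockdown input and 16.7 FPKM in control input, 1.36-fold higher (1.18 to 1.57, from at least 488 and 322 reads). All 4 intervals exclude no difference in counting, while the folds are small and have no replicate spread to be set against.

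CEACAM6 stood at 0.141 FPKM in knockdown input, against 1.22 FPKM in control input, 8.67-fold lower. The interval of 3.42 to 28.2 rests on at least 5 reads in knockdown input and 39 reads in control input. On the log2(FPKM + 1) scale its ratio was -0.96, and the authors' deposited log2 fold change was -3.13. It was the 1 gene of the 8 past 2-fold in plain FPKM, and it is outside the counts above because of its low mean.

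TFF3 stood at 6.70 FPKM in knockdown input and 4.75 FPKM in control input, 1.41-fold higher (1.004 to 1.997, from at least 91 and 58 reads). CA2 stood at 4.58 FPKM in knockdown input and 3.69 FPKM in control input, and its fold of 1.24 had an interval of 0.924 to 1.67 that included no difference. ELF3 stood at 17.1 FPKM in knockdown input, against 20.0 FPKM in control input, 1.17-fold lower (1.09 to 1.26), with at least 1426 reads in knockdown input and 1503 in control input. ELF3 was thus higher in S-CAFs-w13 than in DLD1-W13CM and lower in knockdown input than in control input. Over the 7 measured genes, the interval lay above no difference for 5, beside 24.8% of all 8397 genes with an interval, and below it for ELF3 alone, beside 23%. TFF3 is among the 5 by a lower bound of 1.004, which is 0.994 on the authors' scaling, leaving 4.

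In the knockdown, 1 of 7 measured colonocyte genes and 1 of 4 measured goblet and secretory genes were past 2-fold lower. No measured list gene was past 2-fold higher. Over all genes, 0.56% were past 2-fold lower and 0.429% past 2-fold higher. Of the keratin list, 6 were measured, 0 at least 2-fold higher or lower, with a median of 0.27. Of the colonocyte genes, 7 were measured, with a median of 0.13 and 0 at least 2-fold higher, and the membrane mucin MUC13 was the 1 at least 2-fold lower, at 7.82 FPKM in knockdown input and 18.5 FPKM in control input, 2.37-fold lower (2.07 to 2.72). Of 4 measured goblet and secretory genes, 0 were at least 2-fold higher, and the trefoil peptide gene TFF1 was at least 2-fold lower, at 0.781 FPKM in knockdown input and 2.6 FPKM in control input, 3.34-fold lower (1.15 to 11.7). TFF1 rests on at least 5 reads in knockdown input and 15 in control input and is left out at a minimum mean of 5 FPKM. It reached the mean of 1 FPKM only through control input, where it is high. TFF1 and TFF3 are related secreted peptides and stood on opposite sides of no difference. The 15 measured genes of the epithelial transcription factor list had a median of -0.04 with 0 past 2-fold. EHF stood at 26.4 FPKM in knockdown input and 43.0 FPKM in control input, 1.63-fold lower (1.52 to 1.75). CDX2 stood at 43.8 and 48.8 FPKM. Among fibroblast markers S100A4 alone was listed, at 11.2 FPKM in knockdown input and 5.79 FPKM in control input, and its part in these levels was not tested.

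The co-culture and knockdown comparisons share no library. Of the 7 genes measured in both tables, 5 were higher in S-CAFs-w13 and in knockdown input, 71.4%, where 2088 of 7945 genes, 26.3%, were. These 5 were KRT8, KRT18, KRT19, KRT20 and TFF3, and KRT20 leaves them under the rescaling given above. TFF3 is counted by the sign of its ratios only, as its co-culture interval included no difference (0.942 to 3.71). Its lower bound in the knockdown comparison was 1.004, or 0.994 on the authors' scaling. Of the 7, TFF3 had the largest log2(FPKM + 1) ratios when each gene is taken at the smaller of its 2, with 0.64 in the co-culture and 0.42 in the knockdown comparison. The 3 genes nearest to TFF3 over these 2 ratios were MSANTD4 (0.66 and 0.41), PLEC (0.65 and 0.40) and MPP7 (0.61 and 0.43), a likeness over 2 values only.

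The m7G comparison asks which messages carry more or less m7G when METTL1 is reduced. Whether a peak at a gene start holds m7G inside the message or that of its 5' cap was not tested. The 8 genes in the knockdown table had peaks in the authors' deposited table, of which 4 lay in a 5' UTR, 2 in coding sequence and 2 in an exon by its annotation. The table does not say which line is the numerator of its m7G change; it is read here as knockdown over control, and under the other reading every sign turns. On this reading 5 of the 8 peaks had a lower and 3 a higher m7G value in the knockdown. Over all 9450 peaks, 48.6% had a lower one. The median log2 change of the 8 was -0.17, beside 0.004 over all peaks. By the FDRs of the authors' deposited table, 3 of the 8 peaks, those of KRT8, KRT18 and KRT19, were below 0.05, beside 5.25% of all peaks. These are the 3 most deeply read of the 8 genes. Among the 61 peaks of genes with at least 10000 reads in control input, the class that holds these 3, 36.1% passed.

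The peak of KRT19 (chromosome 17, 41528039 to 41528308, coding sequence) begins at the RefSeq gene start and spans the following 269 bases. In the authors' deposited table its fold enrichment, a ratio of immunoprecipitate to input, was 28.5, at percentile 84.9 of all peaks, and its log2 change was 0.54 (FDR 0.017). KRT19 was thus higher both in input RNA and in m7G value in the knockdown. The peak of KRT8 (chromosome 12, 52904923 to 52906662, 270 bases in 3 blocks, exon) was listed in the authors' deposited table with a fold enrichment of 23.3 and a log2 change of -0.29 (FDR 0.0316). The peak of KRT18 (chromosome 12, 52948931 to 52949432, exon) was listed there, in the authors' deposited table, with a fold enrichment of 15.2 and a log2 change of 0.11 (FDR 0.0214). The partner keratins KRT8 and KRT18 therefore had changes of opposite sign, both small. All 502 bases of the KRT18 peak lie in the stretch that KRT8 and KRT18 share on opposite strands.

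KRT20 had a peak 15 to 253 bases after its gene start (chromosome 17, 40884989 to 40885227, coding sequence), just downstream of the promoter window printed above. The authors' deposited table gave it a fold enrichment of 4.74, at percentile 17.4, and a log2 change of -1.57, 2.97-fold lower (p = 0.0024, FDR 0.0537). The KRT20 peak thus missed the FDR threshold narrowly, and its message was 1.36-fold higher in knockdown input. ELF3 had the largest change of the 8, -2.13 on the log2 scale (FDR 0.570, authors' deposited table), at percentile 1.13 of all peaks; read as control over knockdown, it would be 2.13, at percentile 98.8. That peak (chromosome 1, 202010162 to 202010372) is annotated to the 5' UTR of ELF3 but lies 425 to 215 bases upstream of the RefSeq start of ELF3. Of its 211 bases, 192 lie within ELF3-AS1, and 178 are shared with the peak listed for ELF3-AS1, whose log2 change in the authors' deposited table was -1.74 (FDR 0.652).

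CEACAM6 had a peak 18 to 137 bases after its start (chromosome 19, 41755548 to 41755667, 5' UTR) which the authors' deposited table gives a fold enrichment of 6.95 and a log2 change of -1.58 (FDR 0.678). The same fold enrichment of 6.95 was listed for 118 peaks. With at least 5 input reads in the knockdown, the m7G change of CEACAM6 is poorly determined. TFF3 (chromosome 21, 42315322 to 42315651, 5' UTR) and CA2 (5' UTR) had fold enrichments of 9.73 and 9.43 and log2 changes of 0.22 and -0.06 in the authors' deposited table, with FDRs of 0.676 and 0.682. The peak listed for METTL1 itself had a log2 change of -2.20 (FDR 0.635, authors' deposited table). It is annotated to the 5' UTR but lies at -688 to -450 bases from the RefSeq start of METTL1, upstream of the gene.

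**Figure D4:**
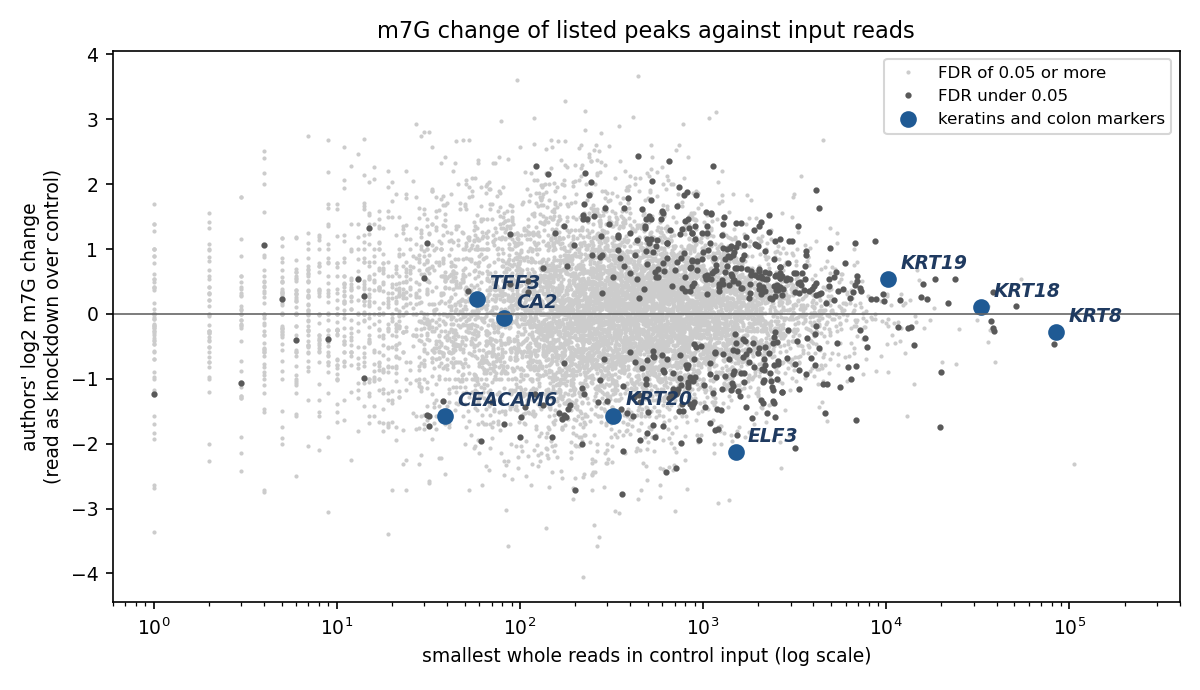
The authors' log2 m7G change of each listed peak, read as knockdown over control (y axis), against the smallest whole reads of its gene in control input (x axis, log scale); light points have an FDR of 0.05 or more, dark points an FDR under 0.05, and the large labelled points are the 8 keratins and colon markers. KRT8, KRT18 and KRT19 lie at the deep end with changes between -0.29 and 0.54, while ELF3, CEACAM6 and KRT20 have changes of -1.57 or lower.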

How the data were processed

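RNA-seq of 2 DLD1 libraries, and input and m7G immunoprecipitate of a METTL1 knockdown and a control line, were analysed, 1 library per group. Libraries were made from TRIzol-extracted total RNA with a TruSeq kit, per the labels' protocols. Tools named in the submitters' processing notes, with no role, are HISAT2 2.1.0, featureCounts 1.6.3, cutadapt 2.5, SAMtools 1.10, DESeq2 and HOMER 4.10.4, beside the builds hg38, GRCh38 and GRCm38; a caller of the peaks was not given in the sources used here. Expression is in FPKM as deposited by the authors; for the knockdown table's input columns the unit was inferred from the values. A log2 fold change and a p-value per gene were deposited too by the authors, which come from single libraries; the p-values were not used. Their log2 values equal the log2 FPKM ratio shifted by -0.144 in the co-culture and -0.0143 in the knockdown table. For each peak the authors deposited a fold enrichment (ratio), a log2 change and, as log10 values, the p-value and FDR of that change, per the file headers. The score columns deposited by the authors, log10 values of a peak's own p-value and FDR, were not used. Peak positions are as deposited; set against RefSeq GRCh38.p14, the peaks of the 8 genes lie within or next to the gene, that of ELF3 upstream of it.

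Whole reads were recovered from FPKM ratios, with a relative tolerance of 2e-14, for 20805 of the 20806 co-culture genes above 0 in both libraries and for 9348 of the 9348 knockdown genes; after a random shift of every ratio, 25 and 14 still passed. True read numbers may be whole multiples of those recovered, so the exact 95% counting intervals are at their widest. PCR copies are not independent molecules. The recovery was tested on simulated data. Genes were compared as log2((FPKM + 1)/(FPKM + 1)) with a mean of at least 1 FPKM, while a fold in the text is the ratio of FPKM values without the added 1. Named are all 9 genes, and of each list up to 5 genes past 2-fold per direction; other list genes were chosen after their values were seen. The 9 genes and the lists were chosen with earlier results of these data known. Alternatives were other pseudocounts and filters, centring, rescaling without mitochondrial genes, the authors' log2 fold change and other m7G thresholds. Python 3.11.15, pandas 2.3.3, numpy 2.4.6, scipy 1.17.1 and matplotlib 3.10.9 were used.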

Additional observations from a re-analysis of the deposited data

How the results depend on the processing

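The median log2 ratio of the 9 genes in the co-culture comparison was 0.52 as reported, 0.74 with a pseudocount of 0.1 FPKM, 0.79 with none, 0.35 with both libraries rescaled without mitochondrial genes and 0.65 with the authors' deposited log2 fold change. The number at least 2-fold higher was 2 as reported and 1 at a minimum mean of 5 FPKM, which leaves out CEACAM5, or rescaled, which puts KRT19 at 0.95. In the knockdown comparison the median was 0.29 as reported, 0.27 with no filter and 0.34 at a minimum mean of 5 FPKM. For m7G, 3 peaks passed an FDR of 0.05 and 0 passed an FDR of 0.01, and 4 passed a p-value of 0.05. Over all 9450 peaks, 496 passed the FDR of 0.05 and 1522 the p-value of 0.05. The median m7G change was -0.17 as reported, 0.022 over the 6 peaks with a fold enrichment of at least 5, and 0.17 read as control over knockdown. With at least 100 reads in each input library, an alternative chosen after seeing the data, 3 of 5 peaks were lower, against 5 of 8. Over all 9450 peaks, with no limit on reads, 48.6% were lower. On the authors' scaling or rescaled, also chosen after seeing the data, the co-culture interval lay above no difference for 5 genes, against 6, without CEACAM6; in the knockdown comparison the authors' scaling left 4, against 5, without TFF3. The cause of these differences was not tested. Of 101 single-gene values under alternatives, 91 moved at most the distance from the middle to the edge of their log2 counting interval. The other 10 moved further. Of the values whose interval lay outside no difference, 0 changed sign. Of 156 counts over the gene lists, 139 stayed within 1.5 times and 17 did not.

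Over all genes of the co-culture comparison, 1338 were past 2-fold higher and 1167 past 2-fold lower (53.4% higher), 924 and 1631 rescaled (36.2% higher), 1673 and 2381 with the authors' log2 fold change (41.3% higher), and 639 and 539 at a minimum mean of 5 FPKM. Over all genes of the knockdown comparison, 36 were higher and 47 lower, 103 and 112 with a pseudocount of 0.1 FPKM, 112 and 126 with none, 111 and 132 with the authors' log2 fold change, and 7 and 16 at a minimum mean of 5 FPKM. Rescaling was not run for the knockdown table, which lists 0 mitochondrial genes. No paired analysis was possible because each group holds a single library. Depth limits CEACAM5, CEACAM6 and TFF3, each at under 100 reads per library.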
